A study of Homo sapiens with 8 samples.

Results

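The gene expression profiles of 2 human Ewing sarcoma cell lines, SK-ES1 and A673, were compared in the state in which both carried a control hairpin. The comparison used the 2 SK-ES1 arrays and the 2 A673 arrays labelled shGFP, 4 of the 8 arrays of the series, and covered the 14884 genes to which at least 1 of the 48144 probe sets of the array could be named. Where several probe sets were named to a gene, the one with the highest mean over the 8 arrays stood for it. The series was made to study RING1B, a subunit of the Polycomb repressive complex PRC1, together with the fusion protein EWSR1-FLI1. Its other 4 arrays hold RNA of the same lines with a short hairpin against RING1B, 2 arrays per line, and are used below as a separate measurement of the line difference. shGFP is a short hairpin RNA against green fluorescent protein, a jellyfish protein that human cells lack, so every array of the main comparison comes from cells that had been made to express a hairpin and none from unmodified cells. Both lines are established cultures of Ewing sarcoma, each line stands for a single tumour, and the labels do not say whether the 2 arrays of a group came from separate cultures. The p-values therefore measure the spread between arrays, which may be technical, and a difference between A673 and SK-ES1 is a difference between 2 cultures, not between classes of tumour.

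Ewing sarcoma, a cancer of bone and soft tissue in young people, is driven in most cases by the fusion of EWSR1 to the ETS factor FLI1. The fusion protein activates genes next to GGAA repeats and lowers mesenchymal genes, and both the neural crest and mesenchymal stem cells have been discussed as the cells of origin. Lines of this tumour share the fusion but differ in their other mutations and in the lineage genes they express, and for that reason a result found in one line is commonly repeated in another.

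The label was checked against markers of Ewing sarcoma and of other cell types. CD99, the surface glycoprotein used in diagnosis, had log2 levels of 12.21 and 12.11 in the A673 arrays and 11.47 and 11.25 in the SK-ES1 arrays, and NKX2-2, a homeobox target of the fusion, had 8.41 and 8.47 in A673 and 7.73 and 7.82 in SK-ES1. Both genes lay far above the median of all probe sets, 4.06, in all 4 arrays, and both were lower in SK-ES1, CD99 by 1.75-fold (limma adjusted p = 0.000747) and NKX2-2 by 1.58-fold (adjusted p = 0.00103). STEAP1 differed by -0.0045 and CCND1 by -0.0078 on the log2 scale, with adjusted p-values of 0.986 and 0.974. NR0B1, PRKCB and LIPI are not named here. None of the 7 measured immune cell markers and none of the 6 measured skeletal muscle markers differed at the threshold used, an adjusted p under 0.05, and 1 of 12 epithelial markers did. That marker was KRT18, a keratin, at 8.95 and 8.64 in A673 and 6.30 and 6.54 in SK-ES1. Of the 3 measured fibroblast markers, LUM and DCN were higher in SK-ES1 and THY1 was higher in A673. The sum of their log2 levels was 13.3 and 12.9 in the A673 arrays and 16.3 and 15.8 in the SK-ES1 arrays, so that the list stood higher in SK-ES1, where LUM was 10.3-fold higher. Of 7 endothelial markers, EMCN and KDR were higher in A673 and CLDN5 in SK-ES1, with EMCN, endomucin, at 6.31 and 6.38 in A673 and 4.67 and 4.81 in SK-ES1. Of 7 Schwann cell and melanocyte markers, MITF and PMEL were higher in SK-ES1, both by under 2-fold, and of 9 markers of sympathetic neuroblasts, HAND2 was higher in A673 and GATA3 in SK-ES1. The calls of CLDN5, KDR, MITF and PMEL were each lost without at least 1 of the shGFP arrays. The part of other cell types in the differences below was not tested.

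The 2 A673 arrays correlated at r = 0.994 over the 14884 genes tested and the 2 SK-ES1 arrays at 0.993, against 0.936 to 0.938 between the lines. In limma's fit, 4572 of 14884 genes, 30.7% of those tested, differed between the lines at an adjusted p under 0.05, and 5904 had an unadjusted p under 0.05. SK-ES1 was higher at 2043 of them, 13.7% of the genes tested, and A673 at 2529, 17.0%. At 2-fold or more, 440 genes were higher in SK-ES1 (2.96%) and 750 in A673 (5.04%), and at 8-fold or more 33 and 60. These shares are the background against which each gene group below is read. Over the 11916 protein-coding genes alone the shares were larger, 34.6% called, with 15.1% higher in SK-ES1 and 19.5% in A673. For lists of protein-coding genes these are the closer background. The median difference over all genes was 0.0092, on the log2 scale as SK-ES1 minus A673.

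**Figure D1:**
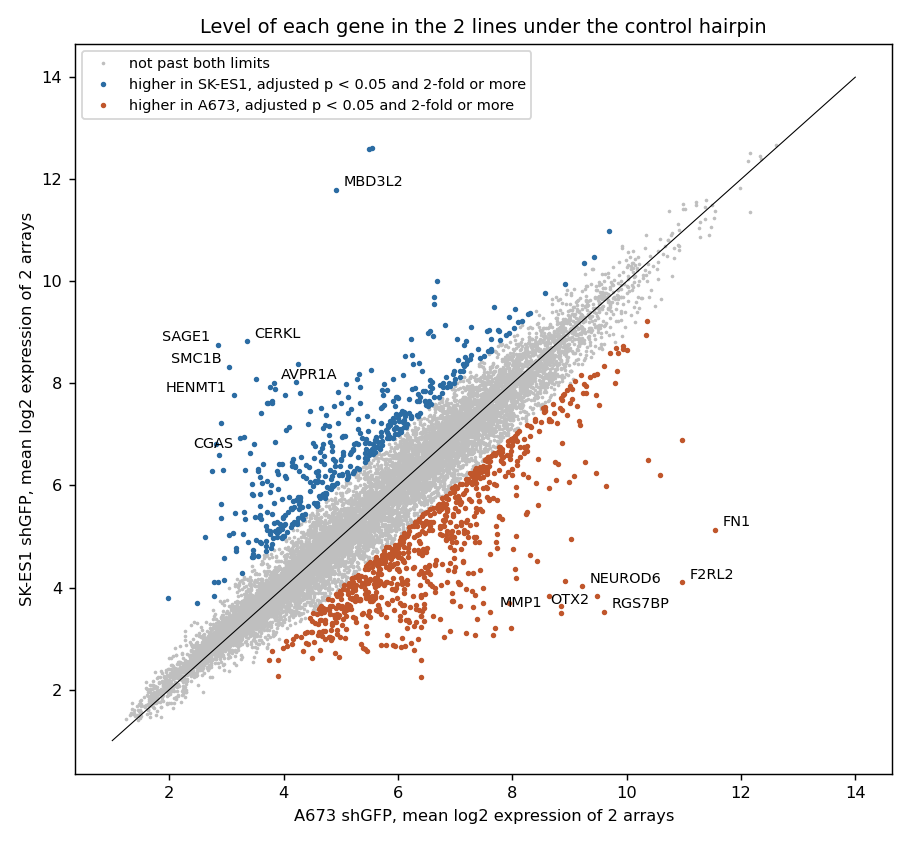
Mean log2 expression of each gene in the 2 A673 shGFP arrays (x axis) and the 2 SK-ES1 shGFP arrays (y axis), 1 point per gene, with genes called at 2-fold or more in colour and the diagonal marking equal levels. The 750 genes higher in A673 lie below the diagonal, among them FN1 and F2RL2, and the 440 genes higher in SK-ES1 lie above it, among them SAGE1, CERKL and MBD3L2.

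The genes furthest apart in favour of A673 encoded a receptor, matrix proteins and neural transcription factors. F2RL2, a protease-activated receptor that thrombin acts on, had log2 levels of 10.96 and 10.98 in the A673 arrays and 4.08 and 4.13 in the SK-ES1 arrays, a difference of -6.87 ± 0.18 (SE, n = 2 arrays per line), or 117-fold (limma adjusted p = 8.59e-09). FN1, which encodes fibronectin, read 11.56 and 11.54 in A673 and 5.30 and 4.98 in SK-ES1, 85.3-fold (adjusted p = 4.41e-09). In SK-ES1 the F2RL2 signal was close to the median of all probe sets. OTX2, a homeobox factor of the forebrain and midbrain, read 9.34 and 9.61 in A673 and 3.71 and 3.94 in SK-ES1, a 50.3-fold difference. NEUROD6, a basic helix-loop-helix factor of differentiating neurons, read 9.23 and 9.23 in A673 and 4.47 and 3.58 in SK-ES1, 36.7-fold, with the SK-ES1 arrays less alike than those of A673. POU1F1, a factor of the anterior pituitary, was 19.4-fold higher in A673. The largest differences were taken only among genes in which both arrays of one line lay above both of the other. RGS7BP, which anchors regulators of G-protein signalling at the membrane, was 67.9-fold higher in A673, and CES1, a carboxylesterase, 20.6-fold. The secreted Wnt antagonists FRZB and DKK1 were 27.8-fold and 22.3-fold higher. DKK1 had the wider spread, 7.39 and 7.99 in A673 and 3.10 and 3.33 in SK-ES1.

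In favour of SK-ES1, germline genes, an innate immune pair and receptors led. The 3 probe sets named to MBD3L5, MBD3L3 and MBD3L2, copies of a methyl-CpG-binding-domain-like gene in 1 cluster on chromosome 19, differed most, by 7.10, 7.06 and 6.88 on the log2 scale. Because the copies are near-identical, which of them gave the signal is uncertain, and they are best taken as 1 observation. SAGE1, a cancer-testis antigen on the X chromosome, read 2.66 and 3.03 in A673 and 8.69 and 8.83 in SK-ES1, a difference of 5.92 ± 0.14 (SE, n = 2 arrays per line), or 60.4-fold (limma adjusted p = 4.41e-09). CERKL, a ceramide kinase-like gene known from retinal disease, read 3.27 and 3.44 in A673 and 8.77 and 8.87 in SK-ES1. Both A673 arrays lay below the array median for these genes and both SK-ES1 arrays far above it. QNG1, an enzyme of queuosine salvage, was 23.7-fold higher in SK-ES1, ENPP3, an ectonucleotidase, 17.6-fold, and RADX, a single-stranded DNA-binding protein of the replication fork, 16.0-fold. IRAK3, which restrains Toll-like receptor signalling, read 3.09 and 2.70 in A673 and 7.18 and 7.28 in SK-ES1, 20.1-fold. The vasopressin receptor AVPR1A was 18.2-fold higher and ADGRG6, an adhesion receptor needed for Schwann cell myelination, 18.0-fold.

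**Figure D2:**
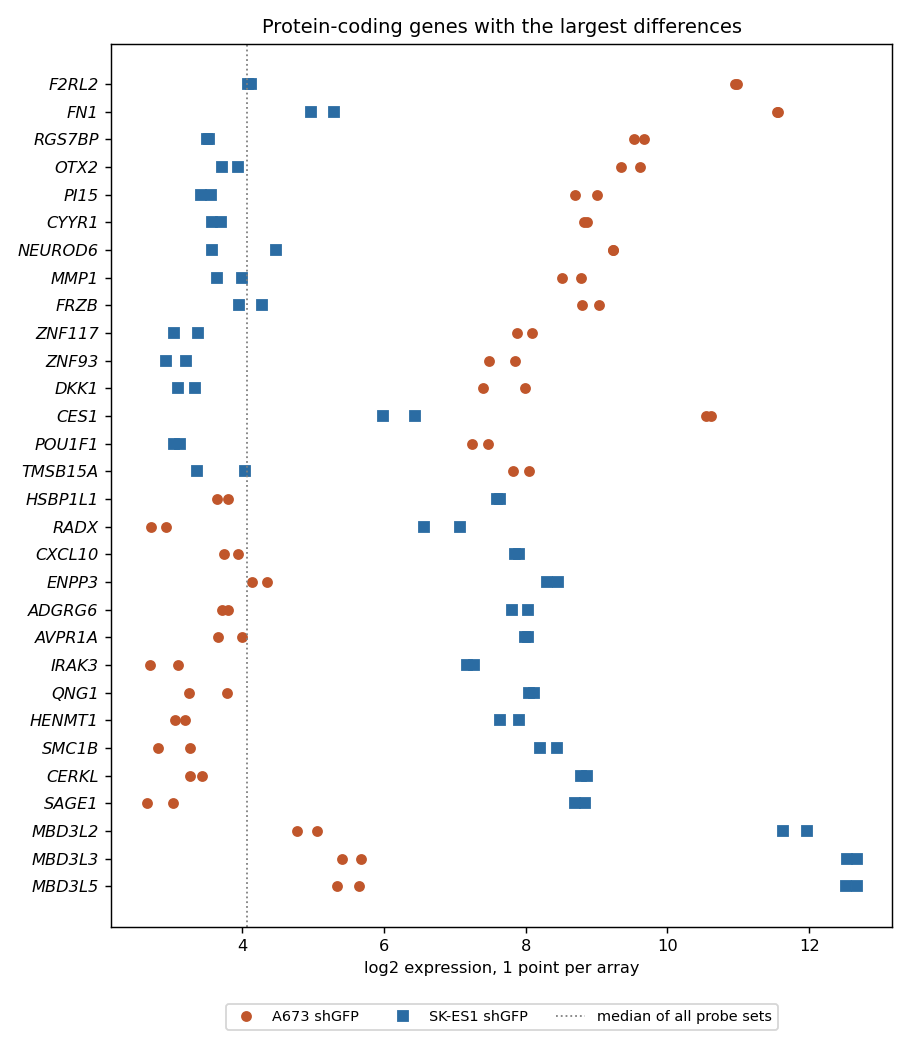
Log2 expression of the 30 protein-coding genes with the largest differences, 15 higher in A673 and 15 higher in SK-ES1, with 1 point for each of the 2 A673 arrays (circles) and 2 SK-ES1 arrays (squares). The arrays of the lower line mostly sit near or below the dotted line, the median of all probe sets at 4.06. Only genes without an overlap between the lines were eligible for this figure.

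Lineage transcription factors were split between the lines. Of 201 measured, 31 were higher in SK-ES1 (15.4%) and 46 in A673 (22.9%), beside 15.1% and 19.5% of all protein-coding genes. At 2-fold or more the counts were 7 and 30. The neural crest group held the larger share of differing genes, with 7 of 29 higher in SK-ES1 and 12 in A673. The 7 became 4 without the first A673 shGFP array or the second SK-ES1 one, and 3 without the second A673 one. TFAP2B, an AP-2 factor of neural crest and sympathetic cells, read 7.44 and 7.77 in A673 and 4.70 and 4.63 in SK-ES1, 7.65-fold lower in SK-ES1 (limma adjusted p = 1.93e-07). SOX9, which acts in neural crest and cartilage, read 8.35 and 8.54 in A673 and 5.48 and 5.75 in SK-ES1, 7.14-fold lower, and DLX2, a factor of the facial crest, 6.27-fold lower. The arrays of the lines did not overlap for any of these. In the other direction FOXD3, which specifies early crest cells, read 5.02 and 5.50 in A673 and 6.92 and 6.75 in SK-ES1, 2.98-fold higher in SK-ES1. DLX3 and DLX4 were higher in SK-ES1 by 1.9-fold and 1.54-fold, so that DLX genes of different clusters pointed to different lines.

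Among the mesoderm and muscle factors, 10 of 52 were higher in SK-ES1, or 6 without the first A673 shGFP array, and 14 in A673. The T-box factors of the limb and heart made up opposite pairs. TBX5, of the forelimb and heart, read 7.31 and 7.58 in A673 and 4.15 and 4.54 in SK-ES1, 8.56-fold lower in SK-ES1 (limma adjusted p = 2.16e-07). TBX4, of the hindlimb, read 4.61 and 4.32 in A673 and 7.43 and 7.49 in SK-ES1, 7.95-fold higher in SK-ES1 (adjusted p = 1.52e-07). A673 thus showed TBX5 well above the array median with TBX4 close to it, and SK-ES1 the reverse. TBX20, a cardiac factor, was 2.06-fold lower in SK-ES1, while TBX3 was 1.97-fold higher. HAND2 and EBF3, factors of sympathetic and mesenchymal cells, were 3.67-fold and 3.44-fold lower in SK-ES1. PAX1, of the sclerotome, and RUNX2, of bone, were 2.49-fold and 2.17-fold higher in SK-ES1. PAX7, a satellite cell factor and a target of the fusion in Ewing sarcoma, read 6.41 and 6.12 in A673 and 8.37 and 8.39 in SK-ES1, 4.33-fold higher (adjusted p = 2.23e-06). MYOD1, the myogenic determinant, read 4.32 and 4.27 in A673 and 4.52 and 4.39 in SK-ES1 and did not pass the test (adjusted p = 0.385).

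Of 79 neural and neuroendocrine factors, 8 were higher in SK-ES1 (10.1%) and 17 in A673 (21.5%). In all 31.6% were called, no more than the 34.6% of all protein-coding genes. Beside OTX2 and NEUROD6, A673 had more SOX11, a factor of immature neurons, at 6.40 and 6.35 against 4.10 and 4.002, and more IRX3, 5.07-fold. SK-ES1 had more PAX6, an eye and forebrain factor, by 2.43-fold, NKX6-1 by 2.23-fold and POU3F2 by 1.83-fold. SOX2, a factor of neural progenitors and pluripotent cells, read 9.44 and 9.41 in A673 and 9.56 and 9.36 in SK-ES1 and did not pass the test. The endoderm and epithelial group had 5 of 24 members higher in SK-ES1, or 3 without the second A673 or the first SK-ES1 shGFP array, and 0 in A673, and only ZEB1, a repressor of epithelial genes, differed by 2-fold or more, at 4.24 and 4.49 in A673 and 5.32 and 5.55 in SK-ES1. In the blood and endothelial group BCL11A, a zinc-finger repressor of fetal globin, read 6.41 and 6.53 in A673 and 3.88 and 3.88 in SK-ES1, 6.03-fold lower.

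The HOX genes, which pattern the body axis, differed in a mixed way. Of 27 measured, 9 were higher in SK-ES1 and 9 in A673, but only 3 of these 18 by 2-fold or more. Of all HOX genes measured 66.7% were called, beside 34.6% of all protein-coding genes. Cluster C had 4 of 7 higher in SK-ES1 and 1 in A673. Cluster D had 3 of 9 higher in A673 and 0 in SK-ES1, 33.3% called, no more than over all protein-coding genes. Cluster B had 5 of 10 higher in SK-ES1 and 4 in A673. These counts depended on single arrays. Without the first A673 shGFP array, 4 HOX genes were called higher in A673, and leaving out any one of the other shGFP arrays gave 5. Cluster C had 2 higher in SK-ES1 without the first array of either line, and cluster D had 1 higher in A673 without either A673 array or the first SK-ES1 array. Under the hairpin against RING1B, 10 of the 18 called HOX genes were called again in the same direction, 2 of 5 in cluster C and 3 of 3 in cluster D. HOXD9 had the largest difference of these clusters, 7.10 and 7.19 in A673 against 4.63 and 5.13 in SK-ES1, 4.82-fold lower in SK-ES1 (limma adjusted p = 2.5e-06). HOXC12 was 2.36-fold higher in SK-ES1, and HOXA2, the single measured gene of cluster A, 3.16-fold lower. HOXD13, a posterior gene, read 9.93 and 9.99 in A673 and 9.97 and 9.94 in SK-ES1, far above the array median in both lines and without a difference beyond the spread (adjusted p = 0.981).

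Genes for surface receptors and adhesion molecules were more often higher in A673. Of 213 measured, 83 were higher in A673 (39.0%) and 30 in SK-ES1 (14.1%), beside 19.5% and 15.1% of all protein-coding genes. The median difference was -0.16. Among 43 receptor tyrosine kinases, 18 were higher in A673 and 6 in SK-ES1. KIT, the receptor of stem cell factor, read 7.50 and 7.63 in A673 and 6.19 and 6.27 in SK-ES1, 2.52-fold lower in SK-ES1 (limma adjusted p = 1.22e-05). RET, the receptor of the GDNF family, read 6.79 and 6.21 in A673 and 4.23 and 4.39 in SK-ES1, 4.58-fold lower, and the collagen receptor DDR2 was 4.31-fold lower. The arrays of each line kept apart for all of these. FGFR3, ALK, FLT3 and AXL were higher in SK-ES1 by 3.25-fold, 3.04-fold, 2.67-fold and 2.08-fold. ALK, the kinase mutated in neuroblastoma, read 4.54 and 4.66 in A673 and 6.22 and 6.19 in SK-ES1. IGF1R, on which Ewing sarcoma cells are known to depend, read 6.56 and 6.41 in A673 and 6.84 and 6.74 in SK-ES1 and missed the threshold (adjusted p = 0.0723).

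Receptors of peptides and transmitters were divided. Of 51, 16 were higher in A673 and 8 in SK-ES1. After F2RL2, the PACAP receptor ADCYAP1R1 was furthest apart in A673, at 6.58 and 6.59 against 3.85 and 4.20 in SK-ES1, and the lysophosphatidic acid receptor LPAR4 was 4.87-fold lower in SK-ES1. GRPR, the receptor of gastrin-releasing peptide, read 4.02 and 4.29 in A673 and 6.22 and 6.54 in SK-ES1, 4.67-fold higher (limma adjusted p = 2.23e-06), and QRFPR was 3.74-fold higher. SK-ES1 therefore stood above A673 at AVPR1A, GRPR and QRFPR and below it at NPY1R, by 2.15-fold, and NPY5R, by 3.45-fold, both receptors of neuropeptide Y. NPR3, a natriuretic peptide receptor, read 4.49 and 4.08 in A673 and 3.83 and 4.02 in SK-ES1, and did not pass (adjusted p = 0.154). In the Wnt, Notch and Hedgehog group, 14 of 32 were higher in A673 and 6 in SK-ES1, or 3 without either A673 shGFP array or the first SK-ES1 one. LGR5, which potentiates Wnt signals through R-spondins, read 7.75 and 7.79 in A673 and 5.31 and 5.50 in SK-ES1, 5.15-fold lower, whereas the Frizzled receptors FZD7, FZD6 and FZD5 were higher in SK-ES1 by 3.53-fold, 2.75-fold and 1.93-fold and FZD2 was lower by 1.7-fold. Of 27 cytokine and death receptors, 8 were higher in A673 and 2 in SK-ES1. CXCR4, the receptor of CXCL12, was 2.07-fold lower in SK-ES1 and OSMR, of oncostatin M, 2.01-fold lower.

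Adhesion genes had the largest A673 share of the receptor groups, 27 of 60, with 8 higher in SK-ES1. DSG2, a desmosomal cadherin, read 6.73 and 7.07 in A673 and 3.08 and 3.22 in SK-ES1, 13.5-fold lower (limma adjusted p = 3.86e-08). NCAM2, a neural cell adhesion molecule, read 7.16 and 7.47 in A673 and 4.25 and 4.31 in SK-ES1, 8.21-fold lower, and the syndecan SDC2 was 8.99-fold lower. In SK-ES1 these 3 genes lay near or below the array median. CEACAM5, which encodes carcinoembryonic antigen, was the reverse, at 4.63 and 4.46 in A673 and 7.07 and 6.49 in SK-ES1, and its relative CEACAM6 was 2.4-fold higher in SK-ES1. Probe sets of integrin genes are unnamed in the annotation used and are not analysed here.

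**Figure D3:**
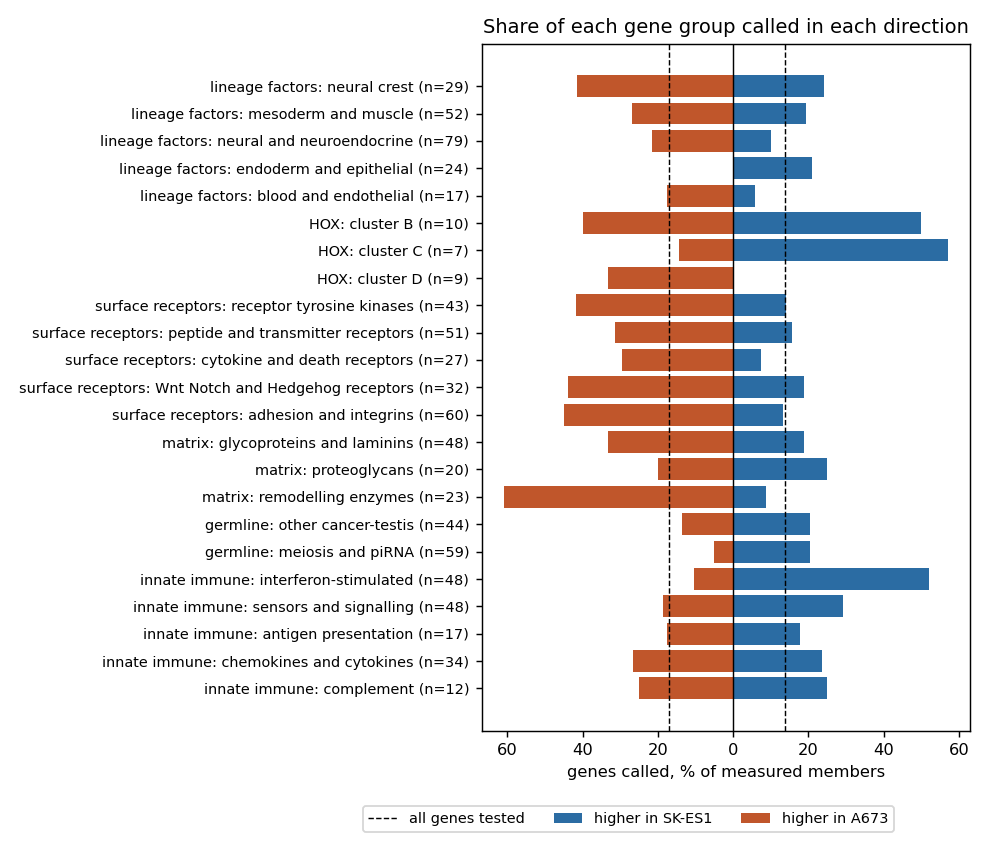
Share of the measured members of each gene group that limma called higher in A673 (bars to the left) or higher in SK-ES1 (bars to the right), in percent, with the number measured in brackets and dashed lines at the shares over all 14884 genes, 17.0% and 13.7%. Among the groups drawn here with over 10 genes, the interferon-stimulated genes reach furthest to the right, at 52.1%, and the matrix remodelling enzymes furthest to the left, at 60.9%.

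Matrix genes also leaned to A673, with 35 of 92 higher there (38.0%) and 16 in SK-ES1 (17.4%). Over all protein-coding genes the shares were 19.5% and 15.1%. The lean was unequal within the list. Of 23 remodelling enzymes and their inhibitors, 14 were higher in A673 (60.9%) and 2 in SK-ES1, and the median difference was -0.72. MMP1, the interstitial collagenase, read 8.51 and 8.77 in A673 and 3.65 and 4.004 in SK-ES1, 28.1-fold lower (limma adjusted p = 2.03e-07). The membrane-bound metalloproteinases MMP14 and MMP16 were lower by 6.16-fold and 4.65-fold, and the secreted protease HTRA1 by 6.74-fold. TIMP1, a metalloproteinase inhibitor, was the reverse, at 9.40 and 9.37 in A673 and 10.27 and 10.20 in SK-ES1.

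Of 48 glycoproteins and laminins, 16 were higher in A673 and 9 in SK-ES1. Beside FN1, A673 had more of the fibrillins FBN1, at 6.70 and 6.60 against 3.78 and 4.03, and FBN2, at 6.77 and 6.70 against 3.32 and 3.43, and of the basement membrane protein NID2, at 6.94 and 6.93 against 3.68 and 3.79. All 3 were below the array median in SK-ES1 and well above it in A673. SK-ES1 had more MFAP4, a microfibril protein, at 11.05 and 10.94 against 9.68 and 9.72, and more FNDC1 and EDIL3, by 2.93-fold and 2.4-fold. Proteoglycans were the one matrix group without a lean to A673, with 5 of 20 higher in SK-ES1 and 4 in A673. BGN, biglycan, read 10.99 and 10.93 in A673 and 7.02 and 6.75 in SK-ES1, 16.9-fold lower (adjusted p = 4.34e-08), and HAPLN1, which links hyaluronan to proteoglycans, was 13.7-fold lower. The small leucine-rich proteoglycans LUM and OGN were the reverse, LUM at 3.11 and 2.77 in A673 and 6.23 and 6.38 in SK-ES1, 10.3-fold higher, and OGN 5.26-fold higher. Of 43 collagens on the list, COL26A1 alone has a named probe set in the annotation used, so that collagens are not covered.

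The mesenchymal genes known to be lowered by EWSR1-FLI1 pointed one way. Of 13 measured, 10 were higher in A673 (76.9%) and 0 in SK-ES1, and 7 of the 10 at 2-fold or more, with a median of -1.33. TNC, the matrix glycoprotein tenascin-C, read 9.01 and 9.03 in A673 and 4.89 and 5.02 in SK-ES1, 16.8-fold lower (limma adjusted p = 1.41e-08). CCN2, a connective tissue growth factor, read 6.70 and 7.28 in A673 and 4.35 and 4.44 in SK-ES1, and CALD1, the actin-binding caldesmon, 6.51 and 6.58 in A673 and 4.38 and 4.47 in SK-ES1. Together with DKK1 these are the 4 with the largest differences, and in each the A673 arrays were above both SK-ES1 arrays. Of the 27 measured genes that mark Ewing sarcoma or are activated by the fusion, 6 were higher in SK-ES1, 9 in A673, and the median was close to 0 at -0.0078. UGT8, an enzyme of galactosylceramide synthesis, was 7.35-fold higher in SK-ES1, and RBM11 and GSTM4 were 2.95-fold and 1.83-fold lower.

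Germline genes, which are normally silent outside testis and ovary, were more often higher in SK-ES1. Of 103 measured, 21 were higher in SK-ES1 (20.4%) and 9 in A673 (8.74%), beside 15.1% and 19.5% of all protein-coding genes. Of the 103, 48 lay below the array median in all 4 arrays. The SK-ES1 count depended on the number of arrays, with 13 called without the second A673 shGFP array and 14 when any one of the other shGFP arrays was left out. The genes that differed most went from around or below the array median in A673 to well above it in SK-ES1. SMC1B, the meiotic form of a cohesin subunit, read 2.81 and 3.26 in A673 and 8.21 and 8.44 in SK-ES1, 39.0-fold higher (limma adjusted p = 1.48e-08). PRAME, a melanoma antigen, read 3.67 and 3.76 in A673 and 7.67 and 7.55 in SK-ES1, 14.9-fold higher. CTCFL, the testis paralogue of the insulator protein CTCF, read 3.85 and 3.73 in A673 and 7.59 and 7.72 in SK-ES1, 14.5-fold higher. For these 3 and SAGE1 the lines were apart by more than 3 log2 units. PIWIL2, an Argonaute protein of the piRNA pathway, was 2.85-fold higher and MEIOB, a meiotic recombination factor, 2.53-fold higher. HENMT1, which methylates piRNAs, read 3.05 and 3.20 in A673 and 7.63 and 7.90 in SK-ES1, although it was not on the list. Higher in A673 were LIN28B, an inhibitor of let-7 processing, by 2.61-fold, CABYR, a sperm flagellum protein, by 4.31-fold, and the synaptonemal protein SYCP2 by 1.95-fold. The MAGE family, 22 genes of the list, has no named probe set in the annotation used and is not analysed here.

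The promoters of 2 of these genes are shown because CG dinucleotides near the start, whose methylation is known to keep many germline genes silent, differ between them. The sequences are from RefSeq on GRCh38.p14, end at the base before the annotated start and read 5′ to 3′ on the gene's strand, with each CG in capitals. SMC1B lies at chr22:45413600-45413719 on the minus strand and PRAME at chr22:22559266-22559385 on the minus strand.
SMC1B: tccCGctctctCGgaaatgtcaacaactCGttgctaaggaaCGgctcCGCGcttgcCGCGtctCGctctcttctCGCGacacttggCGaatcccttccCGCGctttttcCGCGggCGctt
PRAME: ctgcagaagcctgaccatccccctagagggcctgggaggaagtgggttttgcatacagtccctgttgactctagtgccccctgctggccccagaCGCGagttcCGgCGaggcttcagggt
In the 250 bases before the start, SMC1B has 29 CG and PRAME 9, beside a median of 18 over the 10741 tested genes with a promoter in the table and 15.5 over the 78 measured germline genes with one. Methylation was not measured in these samples.

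Among innate immune genes, the interferon-stimulated genes were more often higher in SK-ES1, and the other groups, given below, leaned less or not at all. Of 159 measured on the whole list, 53 were higher in SK-ES1 (33.3%) and 29 in A673 (18.2%). Over all protein-coding genes the shares were 15.1% and 19.5%. Of the 48 interferon-stimulated genes, 25 were higher in SK-ES1 (52.1%), 15 of them at 2-fold or more, and 5 in A673 (10.4%), with a median difference of 0.51. IFIT1, which binds foreign RNA ends, read 3.47 and 3.16 in A673 and 6.40 and 6.20 in SK-ES1, 7.92-fold higher (limma adjusted p = 6.01e-07). ISG15, a ubiquitin-like protein, read 6.38 and 6.09 in A673 and 8.79 and 8.93 in SK-ES1, 6.18-fold higher. BST2, which tethers budding virus particles, read 3.98 and 3.72 in A673 and 6.77 and 6.91 in SK-ES1, 7.97-fold higher. In each, both SK-ES1 arrays were at least 2 log2 units above both A673 arrays. HERC5, the ligase that attaches ISG15, was 5.5-fold higher. Among the 5 exceptions were DTX3L, at 7.12 and 7.09 in A673 and 5.68 and 5.68 in SK-ES1, TRIM5, 2.54-fold lower, DDX60L, 2.34-fold lower, and SAMD9L, 1.6-fold lower.

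Interferon-stimulated genes carry the interferon-stimulated response element, at which complexes of STAT and IRF proteins bind, and the promoters of 3 of the genes above are shown to point out letters of that kind. The motif searched was GAAANNGAAA, or TTTCNNTTTC on the other strand, in the 250 bases before the start, and matches are in capitals, overlapping ones joined. IFIT1 lies at chr10:89392472-89392564, ISG15 at chr1:1013349-1013434 and HERC5 at chr4:88456959-88457089, all on the plus strand, from RefSeq on GRCh38.p14, read 5′ to 3′.
IFIT1: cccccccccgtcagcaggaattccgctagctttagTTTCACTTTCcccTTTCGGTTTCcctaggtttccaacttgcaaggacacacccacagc
ISG15: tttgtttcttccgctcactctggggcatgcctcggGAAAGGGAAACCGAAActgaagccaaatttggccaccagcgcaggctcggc
HERC5: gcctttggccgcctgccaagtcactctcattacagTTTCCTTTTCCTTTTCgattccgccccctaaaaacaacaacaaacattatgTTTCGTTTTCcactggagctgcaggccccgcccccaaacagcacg
The motif was in 20 of the 38 measured interferon-stimulated genes with a promoter in the table (52.6%), against 276 of 10741 tested genes (2.57%) and 836 of all 27195 promoters (3.07%). It was in 13 of the 20 such genes that were higher in SK-ES1 and in 7 of the 18 that were not. Since the list was drawn from genes known to respond to interferon, the share describes the list, and no binding was measured here.

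Of 48 sensors and signalling proteins, 14 were higher in SK-ES1 and 9 in A673. IFIH1, the sensor of long double-stranded RNA also called MDA5, read 3.77 and 3.80 in A673 and 7.45 and 7.77 in SK-ES1, 14.1-fold higher (limma adjusted p = 3.32e-08). CGAS, the sensor of cytosolic DNA, read 3.27 and 3.33 in A673 and 6.90 and 7.004 in SK-ES1, 12.6-fold higher (adjusted p = 8.83e-08). RIGI, the sensor of RNA with triphosphate ends, read 6.02 and 6.23 in A673 and 7.29 and 7.54 in SK-ES1, 2.45-fold higher. Both A673 arrays were below the array median for IFIH1 and CGAS, and STING1, the adaptor that acts after CGAS, did not share the difference, at 7.13 and 7.32 in A673 and 7.12 and 7.12 in SK-ES1 (adjusted p = 0.568). TLR5, the flagellin receptor, and MLKL, the executor of necroptosis, were 4.59-fold and 3.2-fold higher in SK-ES1. TLR3, an endosomal RNA sensor, was 2.67-fold lower in SK-ES1, and the repressors IRF2 and SOCS1 were 2.13-fold and 2.05-fold lower. SLFN11, linked to the response to DNA-damaging drugs, read 8.41 and 8.24 in A673 and 8.31 and 8.26 in SK-ES1 and did not pass the test.

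Chemokine and cytokine genes were divided, with 8 of 34 higher in SK-ES1, or 5 without the second SK-ES1 shGFP array, and 9 in A673. CXCL10, a ligand of CXCR3 that interferon induces, read 3.74 and 3.94 in A673 and 7.85 and 7.91 in SK-ES1, 16.5-fold higher (limma adjusted p = 1.28e-07), and CXCL11, of the same receptor, read 3.47 and 3.70 in A673 and 5.98 and 6.33 in SK-ES1. CCL2, the monocyte attractant, was the reverse at 7.42 and 7.56 in A673 and 3.87 and 3.54 in SK-ES1, 13.8-fold lower (adjusted p = 6.4e-08). CXCL14 was 11.3-fold lower as well, and CCL5 2.08-fold higher. In antigen presentation, 3 of 17 genes were higher in each line. B2M, the light chain of MHC class I, read 8.82 and 8.80 in A673 and 8.78 and 8.87 in SK-ES1 and did not pass the test, ERAP1, which trims peptides, was 3.75-fold lower in SK-ES1 and ULBP1, a ligand of the NKG2D receptor, 4.11-fold higher. HLA genes are likewise not analysed here. Complement genes had 3 of 12 higher in each line, the 3 of SK-ES1 becoming 1 when any single shGFP array was left out, with C3 2.78-fold higher and CLU 6.3-fold lower in SK-ES1. The 7 immune cell markers measured did not differ at the threshold. The sum of their log2 levels was 29.1 and 29.9 in the A673 arrays and 29.7 and 30.5 in the SK-ES1 arrays.

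**Figure D4:**
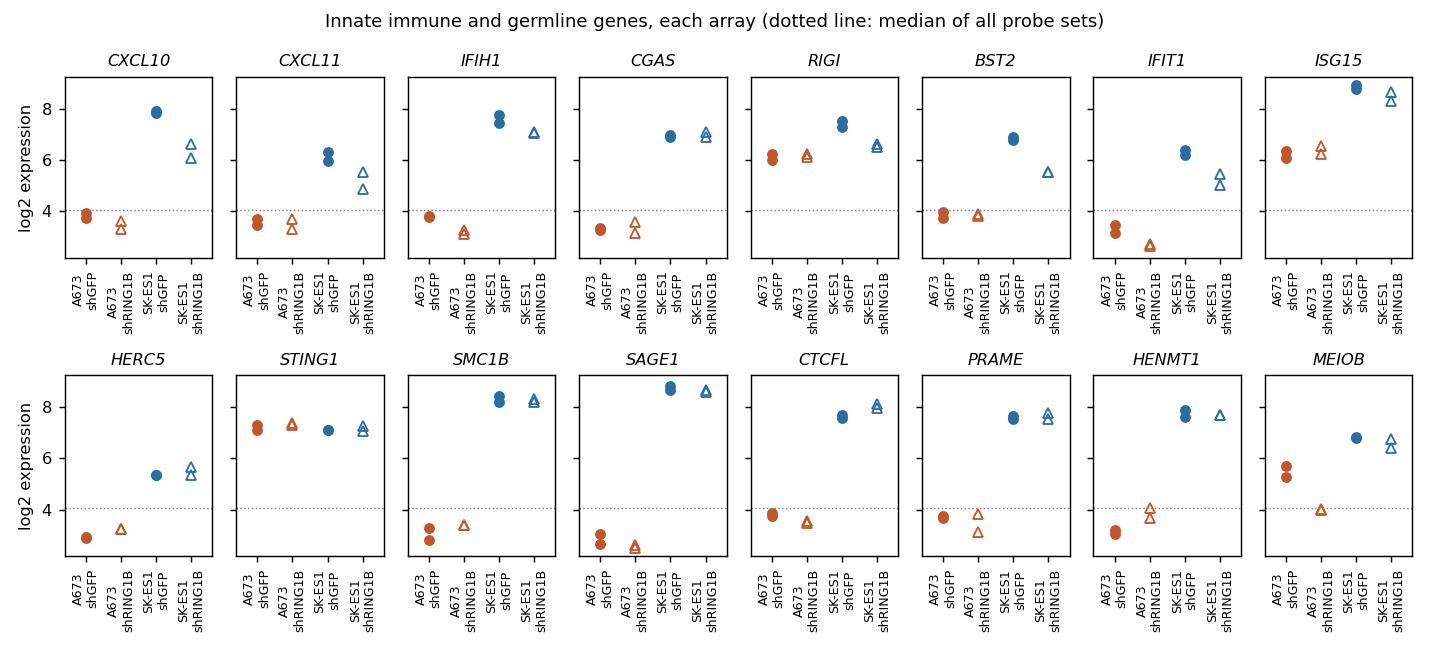
Log2 expression of 16 innate immune and germline genes in each of the 8 arrays, with shGFP arrays as filled circles, shRING1B arrays as open triangles, A673 in orange and SK-ES1 in blue, and the median of all probe sets as a dotted line. For every gene but STING1 both SK-ES1 shGFP arrays lie above both A673 shGFP arrays, and BST2 is the gene in which the SK-ES1 level is visibly lower under shRING1B with an interaction that passed the test.

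On the short arm of chromosome 9, MTAP, an enzyme of methionine salvage, read 7.34 and 7.45 in A673 and 6.08 and 6.41 in SK-ES1, 2.23-fold lower (limma adjusted p = 0.000165), and its neighbour CDKN2A read 4.83 and 5.18 in A673 and 4.14 and 4.02 in SK-ES1, 1.89-fold lower. DMRTA1, a gene of the same region, was 3.28-fold lower as well. Of the 12 measured genes listed for this region, 9p21, 4 were higher in A673 (33.3%) and 2 in SK-ES1 (16.7%), with a median of -0.24. Over all protein-coding genes the shares were 19.5% and 15.1%. The calls in SK-ES1 were fewer when any single shGFP array was left out. Of 12 cyclins, kinases and inhibitors, 5 were higher in A673 and 2 in SK-ES1. CCND2 read 6.62 and 6.24 in A673 and 4.35 and 4.23 in SK-ES1, and MYC, the growth-promoting transcription factor, 8.95 and 8.98 in A673 and 9.81 and 9.85 in SK-ES1. Mitotic genes leaned to A673, with 7 of 19 higher there and 0 in SK-ES1, but none by 2-fold. MKI67, the proliferation marker, was 1.85-fold lower in SK-ES1 and FOXM1 1.81-fold lower. Whether these arrays' cells grew at different rates was not measured. Of 37 metabolic and drug-handling genes, 9 were higher in SK-ES1 and 10 in A673. HK1, a hexokinase, was 2.97-fold lower, DPYD, which degrades fluorouracil, 1.96-fold higher, and MGMT, which repairs alkylated guanine, did not pass the test at 5.70 and 5.35 in A673 and 5.53 and 5.57 in SK-ES1. Of 12 housekeeping genes, 2 were higher in each line, counts that ran from 0 to 4 for SK-ES1 and from 1 to 3 for A673 over the settings tried, with GAPDH 1.49-fold lower in SK-ES1.

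Line differences were also unevenly placed along the chromosomes. A running median over 25 neighbouring protein-coding genes was taken on the 22 autosomes, in RefSeq order, over the 6751 genes whose mean level passed 5.26, and stretches where it passed 0.4 on the log2 scale over at least 10 genes were kept. There were 12, with 485 genes in all, 9 lower and 3 higher in SK-ES1. The longest was on chromosome 17, from WDR81 to RNF135, where 133 of 143 genes were lower in SK-ES1, 109 of them called, with a median of -0.72. TMEM88, a membrane protein that binds Dishevelled, at 12.6-fold lower, and SRR, serine racemase, at 7.41-fold lower, were its leading genes. The second longest was on chromosome 3, from CSRNP1 to HYAL2, where 64 of 69 genes were higher in SK-ES1, 53 of them called, with a median of 0.61. Its genes included the deubiquitinase USP4, 2.47-fold higher, and the exosome subunit EXOSC7, 2.35-fold higher. Both stretches were chosen by these same differences, so a majority in one direction was largely set by the choice. In the arrays with the hairpin against RING1B, 133 of 143 and 63 of 69 genes pointed the same way. The median difference under shGFP was under 2-fold in both stretches.

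On chromosome 7, from POLR1F to MPLKIP, 38 of 40 genes were lower in SK-ES1 with a median of -0.74, and NEUROD6 was the one furthest apart. On chromosome 11, from FJX1 to RTN4RL2, the median of 32 genes was -0.76, with the growth factor MDK 3.73-fold lower. On chromosome 12 a stretch of 18 genes from PPTC7 to TBX3 had a median of -0.43 and included TBX5, whose difference was larger than that of its neighbours, and TBX3, which went the other way. On chromosome 17 from NSF to AKAP1, 43 of 51 genes were higher in SK-ES1 with a median of 0.48, among them DLX3 and the ubiquitin ligase TRIM25, 1.96-fold higher, a member of the interferon-stimulated list. How much of a single gene's difference goes with its stretch was not tested. Shares by autosome were taken over the same protein-coding genes above the level limit, so the shares over all genes tested are not their background. Chromosome 3 had the largest share higher in SK-ES1, 37.9% of 356, followed by chromosome 13 at 29.9%. Chromosome 8 had the largest share higher in A673, 40.2% of 251, followed by chromosome 17 at 34.0%. The smallest shares were 10.1% higher in SK-ES1, on chromosome 16, and 9.83% higher in A673, on chromosome 3. Chromosome 1, with the most genes, 666, had 16.7% higher in SK-ES1 and 22.7% in A673. A share over the 6751 genes together was not computed. Of 29 zinc-finger genes in a block of chromosome 19 from ZNF506 to ZNF254, 24 were called lower in SK-ES1, beside 19.5% of all protein-coding genes. Their median was -2.07, with ZNF93 24.2-fold lower. Those in a block of chromosome 7 from ZNF736 to ZNF92 were called lower at 7 of 7, with a median of -2.12. The ends of both blocks were set by hand, not by the running median. Under the hairpin against RING1B the medians of these blocks were -1.15 and -1.35.

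**Figure D5:**
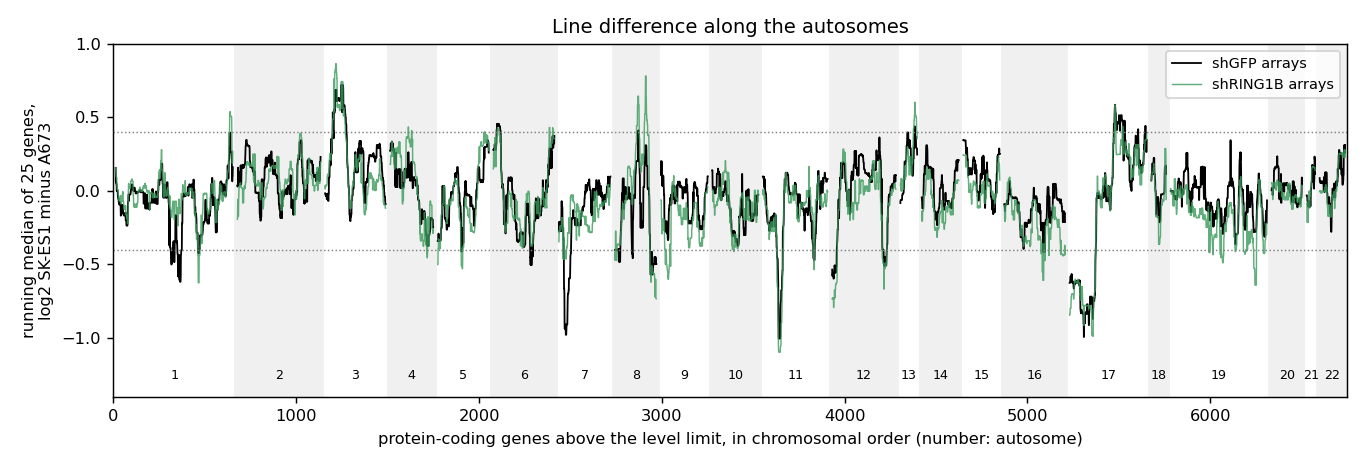
Running median over 25 neighbouring genes of the log2 difference SK-ES1 minus A673 (y axis) along the autosomes (x axis, 6751 protein-coding genes in order, alternate autosomes shaded), for the shGFP arrays in black and the shRING1B arrays in green, with dotted lines at 0.4 and -0.4. The black line stays under -0.4 across the 143 genes of chromosome 17 and above 0.4 across the 69 genes of chromosome 3, and the green line follows it there but not on chromosomes 1 and 7.

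The arrays with the hairpin against RING1B gave the line difference a second time, from 4 arrays that the first comparison did not use, with the estimate of spread shared. There limma called 4677 genes, 31.4% of those tested, 2047 higher in SK-ES1 and 2630 in A673. Both comparisons called 3243 genes in the same direction, 70.9% of the first set and 69.3% of the second, and 17 in opposite directions. Of the 1190 genes called at 2-fold or more under shGFP, 1127 (94.7%) were called again in the same direction. FN1, at 11.68 and 11.54 in A673 and 5.86 and 5.51 in SK-ES1, OTX2, at 9.13 and 9.28 in A673 and 3.58 and 3.56 in SK-ES1, CGAS, at 3.16 and 3.57 in A673 and 6.90 and 7.10 in SK-ES1, and SAGE1, at 2.49 and 2.62 in A673 and 8.69 and 8.62 in SK-ES1, kept their lines apart by -5.93, -5.63, 3.63 and 6.10 on the log2 scale. By list, 22 of the 30 called interferon-stimulated genes, 90 of the 113 called receptor genes, 40 of the 51 called matrix genes and 21 of the 30 called germline genes were called again in the same direction.

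The test of the difference itself, the interaction of line and hairpin, called 117 genes (0.786%), few beside the 30.7% that differed between the lines, and 20 of the genes named by rule were among them. GRPR was the plainest case, at 3.92 and 3.86 in A673 and 4.19 and 3.96 in SK-ES1 under shRING1B, where the line difference was 0.19 after 2.22 under shGFP (limma interaction adjusted p = 0.00562). DSG2 went from -3.75 to -1.82, and its A673 arrays read 4.96 and 4.93 under shRING1B. TBX20 went from -1.04 to 0.52 (interaction adjusted p = 0.0463). These calls depended on single arrays. Of the 8 fits that left out 1 array each, GRPR and DSG2 passed in 6, BST2 in 3 and TBX20 in 1. Without the first SK-ES1 shRING1B array the interaction called 0 genes, and without the second 1. It called 9 genes without the second A673 shGFP array, 21 and 27 without either SK-ES1 shGFP array, and between 66 and 72 without any of the others. On chromosome 7 the stretch from POLR1F to MPLKIP had a median of -0.31 under shRING1B after -0.74, and on chromosome 1 that from LRIF1 to ZNF697 had -0.15 after -0.60. From NSF to AKAP1 on chromosome 17 it had 0.31 after 0.48. On chromosome 17, from WDR81 to RNF135, it was -0.74 after -0.72. All 12 stretches were chosen by the shGFP differences alone, so the size of their shGFP medians was partly set by the choice. A smaller median under shRING1B is therefore no measure of an effect of the hairpin, and none was tested for the stretches.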

How the data were processed

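RNA of 2 cell lines with 2 hairpins was hybridised to 8 one-colour Affymetrix arrays after WT PLUS labelling, per the labels. The deposited values are log2 expression per probe set. RMA and limma are named, without versions, in the submitters' processing notes, and the settings of RMA are not given in the sources used here. Every column was used, and no pair of arrays held identical values. Precision is limited by having 2 arrays a group.

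Platform annotation named 16098 probe sets (33.4%) to 1 symbol, updated through gene IDs to RefSeq symbols, and 32046 were unnamed and entered only an alternative. For the 14884 genes, limma 3.58.1 in R 4.3.3 fitted 4 group means over the 8 arrays (4 residual and 6.00 prior degrees of freedom), with Benjamini-Hochberg adjustment over all genes and calls at an adjusted p under 0.05. The fit was tested on simulated data. The named genes included the 15 largest called protein-coding genes per direction, among those whose arrays did not overlap between the lines. Added to these were up to 4 called members per direction of each list group and genes of a key list. The ends and up to 4 called members of chromosome stretches were named too. The members and lists were chosen with earlier results of these data known. Genes of the Y chromosome and XIST are not reported. The labels give no replicate numbers, so arrays were numbered in deposit order. Other normalizations, variance models, probe set rules, filters, thresholds and leaving out each array were tried.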

Additional observations from a re-analysis of the deposited data

Results flagged for a closer look

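The line difference itself differed between the hairpins at 20 of the genes named by rule. The test was limma's interaction test with an adjusted p under 0.05 over all 14884 genes. Values are log2, the line difference under shRING1B minus that under shGFP, each from 2 arrays per group. A positive value means that SK-ES1 stood higher relative to A673 under shRING1B. The adjusted p-values ran from 0.00562 for GRPR and DSG2 to 0.0463 for TBX20, and each of the 20 calls was lost in at least 2 of the 8 fits that left out 1 array.

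Among the transcription factors, the value was 1.8947 for NEUROD6, 1.1744 for TBX5, 1.5676 for TBX20, 1.0692 for BCL11A and 1.2934 for ZNF93. Under shGFP each of these was higher in A673, and for TBX20 the sign of the line difference turned, from -1.04 to 0.52. Among receptors and adhesion genes, the value was -2.0389 for GRPR, 1.4151 for ADCYAP1R1, -1.1448 for OSMR, 1.9307 for DSG2, 1.1607 for UNC5C and -1.9699 for CEACAM5. GRPR and CEACAM5 lost most of their line difference, with 0.19 and 0.26 under shRING1B. For RGS7BP, which anchors G-protein regulators, it was 1.5173.

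Among matrix genes, the value was 1.2263 for EDIL3, 1.4153 for HAPLN1 and 1.2927 for VCAN. In the germline list it was 1.9878 for ACTL8 and 1.2432 for MEIOB, in the interferon-stimulated list -1.295 for BST2, and for ASS1, an enzyme of arginine synthesis, 1.465. For DENND2C, a leading gene of the chromosome 1 stretch, it was 1.0302. ACTL8 went from -0.59 under shGFP to 1.39 under shRING1B. What the values mean was not tested.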

How the results depend on the processing

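Of 314 named genes, 291 were called, 250 of these under all 14 settings run on named genes, and 41 lost the call under at least 1. A further 4 gained a call and no called gene changed direction. With a threshold of 0.01, 3010 genes were called in place of 4572. Tested over all 48144 probe sets, named or not, 7224 were called, 2341 of them at 2-fold or more, and 7606 under shRING1B. The interaction called 60 over all probe sets, 179 over genes above the median of all probe sets and 281 with a trended, robust prior, in place of 117. Leaving out 1 array at a time gave 0 to 72 interaction calls and 13 to 22 germline genes higher in SK-ES1. Over the same fits, 3160 to 4674 genes were called under shGFP, 1190 to 1238 at 2-fold or more, and 3303 to 4476 under shRING1B. In the other settings the lineage, receptor, matrix, germline and innate immune lists kept within 1.5 times their counts. HOX genes higher in A673 numbered 4 to 9 over all settings, and the groups within lists moved more, as in 5 to 12 meiosis and piRNA genes higher in SK-ES1. One immune cell marker was called over the shGFP arrays alone. Between 53.1% and 58.8% of calls were higher in A673. No paired analysis was possible because the labels give no replicate numbers that pair arrays across groups. A signal near the array background, as in 48 of 103 germline genes, limits what a difference can show, and 2 arrays per group limit every interval.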

Other observations

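Among microRNA genes, 92 of 1072 were called (8.58%), and among long noncoding RNAs 256 of 1398 (18.3%), beside 4119 of 11916 protein-coding genes (34.6%). Many of these RNAs had low signals, since 669 of the microRNA genes and 663 of the long noncoding RNAs lay below the median of all probe sets in all 4 arrays, beside 1821 of the protein-coding genes. Of 10 antisense RNAs, 6 were called. LINC02525 was 12.9-fold higher in SK-ES1 (limma adjusted p = 1.28e-07) and LINC01139 10.1-fold higher. In A673, ZNF667-AS1, an antisense RNA beside a zinc-finger gene, read 6.74 and 7.19 against 3.72 and 3.75 in SK-ES1. Its line difference was -1.74 under shRING1B after -3.23 under shGFP (limma interaction adjusted p = 0.0183). These RNAs were picked as the called ones with the largest differences, after their values were seen.

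Imprinted genes, which are expressed from 1 parental copy, were looked at after the values had been seen, so the list supports nothing by itself. Of 20 measured, 6 were higher in each line. PEG3-AS1 read 6.61 and 6.09 in A673 and 2.83 and 3.14 in SK-ES1, and MIMT1, a neighbour in the same imprinted domain of chromosome 19, 5.06 and 4.72 in A673 and 2.62 and 2.83 in SK-ES1. MEST was 4.03-fold lower in SK-ES1. DLK1, a Notch-like surface protein, read 4.60 and 4.26 in A673 and 7.09 and 7.32 in SK-ES1, 6.84-fold higher (limma adjusted p = 5.55e-07), whereas MEG3, the noncoding RNA of the same domain, was 2.79-fold lower, and RTL1, another gene there, did not pass the test at 5.04 and 5.10 in A673 and 4.95 and 5.22 in SK-ES1. NDN was 3.26-fold higher, and its line difference was 2.93 under shRING1B after 1.70 under shGFP (limma interaction adjusted p = 0.037).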
